A study of Caenorhabditis elegans with 16 samples.

Results

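The 8 genes described here encode kinases of the TOR and AMPK pathways and their close partners: let-363, daf-15, rict-1, rsks-1, raga-1, aak-1, aak-2 and par-4. They were chosen by name, 8 of the 46911 genes counted, and their messenger RNA was followed in whole Caenorhabditis elegans larvae that had hatched without food. Larvae of the L1 stage were kept at 20 °C and collected 12 hours after hatch, 24 hours after bleaching of the adults, with 10000 larvae in each library. The 16 libraries form 4 groups of 4 biological replicates, all of them starved. Wild type was strain N2. The irld mutant was strain LRB444, irld-39(duk1); irld-52(duk17). The daf-2 mutant was strain CB1370, daf-2(e1370). The triple mutant carried daf-2(e1370), irld-39(duk1) and irld-52(duk17). It came as LRB457 and LRB458, lines obtained independently, each with 2 libraries, while every other genotype is represented by 1 strain. The gene daf-2 encodes the worm's insulin/IGF receptor, and irld proteins carry domains related to insulin and EGF receptors.

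TOR is a kinase that promotes growth and protein synthesis when food is present, and AMPK is a kinase that is switched on when cellular energy runs low. TOR acts in complexes: LET-363 is the kinase itself, DAF-15 (Raptor) belongs to TOR complex 1 and RICT-1 (Rictor) to TOR complex 2. RAGA-1 is a Rag GTPase that passes the amino acid signal to complex 1, and RSKS-1 is the S6 kinase, a substrate of complex 1. AAK-1 and AAK-2 are the alternative catalytic subunits of AMPK, and PAR-4 is the worm's LKB1, a kinase that activates AMPK. In larvae arrested at L1, AMPK is known to hold the germline precursors quiescent, and daf-2 signalling is known to influence the same arrest. All these proteins are controlled largely by phosphorylation and by nutrients, which RNA levels do not report.

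Between 14033534 and 24903552 reads per library were assigned to genes, and the members had between 180 (par-4, wild type) and 5523 (daf-15, triple mutant) counts in a library. Markers of the adult or oocyte summed to 5.76 to 11 CPM for wild type, 6.71 to 12.8 for the irld mutant, 4.92 to 15.1 for the daf-2 mutant and 6.60 to 22.4 for the triple mutant (CPM, counts scaled to library size with TMM factors). The sperm genes msp-3 and msp-19 reached at most 0.0616 and 0.0639 CPM in any library, and the body muscle genes unc-54, myo-3, unc-15 and lev-11 summed to at least 8680 CPM in every library. Summed neuron markers (unc-119, rab-3, snb-1, egl-3 and unc-104, of which egl-3 alone gave 837 to 1780 CPM) ran from 1430 to 2430 CPM in wild type and from 1930 to 2160 in the irld mutant, against 1610 to 1720 in the daf-2 mutant and 1550 to 1790 in the triple mutant, so the last lay below the irld mutant with no overlap. Between those groups 27.0% of single genes did not overlap, and 0 of the 5 neuron markers were called. Summed markers of the primordial germ cells (pgl-1, glh-1, glh-4 and xnd-1) ran from 27.6 to 62.6 CPM in wild type, 36.3 to 70.9 in the irld mutant, 40.2 to 91.0 in the daf-2 mutant and 62.4 to 73.4 in the triple mutant. In the comparison that pools both daf-2(e1370) groups, 1 of the 5 neuron markers and 0 of the 4 germ cell markers were called lower, and 0 of either higher. Of 5 intestine markers (ges-1, elt-2, ifb-2, act-5 and pept-1) 2 were called higher and 1 lower. Of 4 epidermis markers (dpy-7, lin-26, elt-1 and elt-3) 1 was called higher and 1 lower. Markers of the adult or oocyte, early embryo, body muscle and pharynx had 0 called. In the same pooled comparison their median log2 fold changes were 0.31 (3 genes tested), -0.51 (6), 0.14 (4) and -0.32 (4) in that order. The median over all genes was -0.0054. Over all genes tested 16.1% were called higher and 15.0% lower. The part of these cells in the members' changes was not tested. In whole larvae, fewer cells of a type and less RNA per cell cannot be told apart. daf-2 itself had 3649 to 10520 counts, and irld-39 and irld-52 had at most 12 counts in any library, so the counts do not check the alleles. A pair of wild-type libraries stood apart on long transcripts: in replicates 2 and 3, the 379 genes with 5000 or more exon bases lay at a median of -0.55 and -0.80 on the log2 scale from their mean over all libraries. In wild-type replicates 1 and 4 the same median was 0.17 and 0.22, and in the other 12 libraries it lay between -0.15 and 0.25. Of the members, let-363 (8560 exon bases), daf-15 (5883) and rict-1 (5023) are in that length range. From 3000 up to 5000 exon bases, wild-type replicates 2 and 3 had medians of -0.26 and -0.48. From 2000 up to 3000 they had -0.11 and -0.24. The other libraries lay no lower than -0.0211 and -0.0108 in these ranges. rsks-1 (3050) is in the first of them, and aak-1 (2337) and aak-2 (2431) are in the second. par-4 (1854) and raga-1 (1266) are in the range from 1000 up to 2000, where replicates 2 and 3 had 0.021 and 0.042. The estimates of the members in the daf-2 mutant against wild type are also given without wild-type replicates 2 and 3, a fit added after seeing the members' values.

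**Figure D1:**
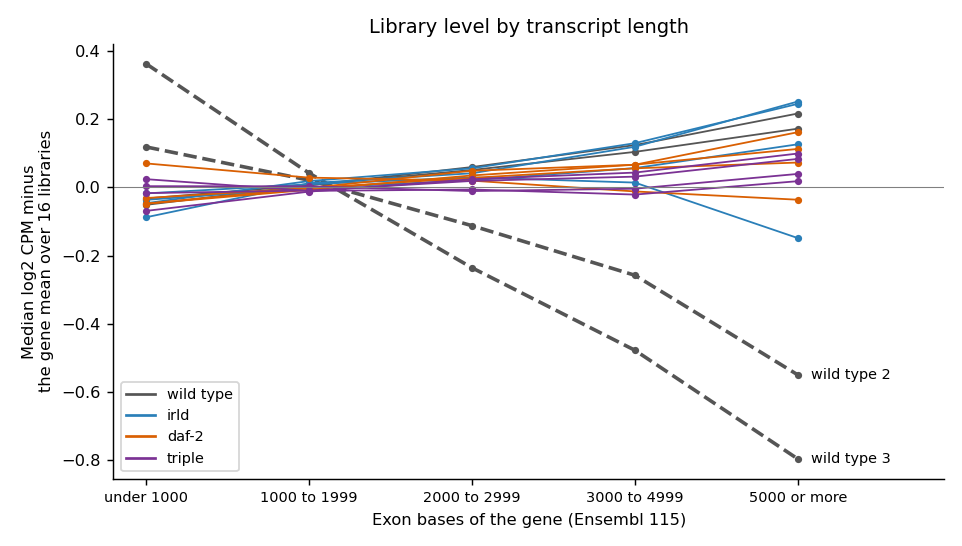
Median level of genes grouped by exon length, in each library, as log2 CPM minus the gene's mean over the 16 libraries (vertical axis), against exon bases of the gene (horizontal axis). Lines are libraries coloured by group. Wild-type replicates 2 and 3 (dashed) fall to -0.55 and -0.80 for genes of 5000 or more exon bases, while the other libraries stay between -0.15 and 0.25.

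Levels were compared between genes per kilobase of exon (CPM per kb), as mean ± SD over 4 libraries. In wild type, aak-2 at 73.4 ± 9.72 and rsks-1 at 71.3 ± 14 were highest, and their libraries overlapped in every group. raga-1 at 41.7 ± 2.94 and daf-15 at 39.8 ± 14 came next and overlapped except in the irld mutant, where daf-15 stood at 49.3 ± 3.39 and raga-1 at 41.3 ± 0.970. let-363 followed at 17.6 ± 6.33, with no overlap with the genes above or below it in any group. aak-1 at 8.27 ± 1.70, par-4 at 8.18 ± 1.37 and rict-1 at 8.05 ± 2.33 were lowest in wild type and overlapped each other. With daf-2(e1370) in the genotype aak-1 was the lowest of the 8, at 6.15 ± 0.477 CPM per kb without and 5.13 ± 0.194 with the irld alleles, below every library of the other members.

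**Figure D2:**
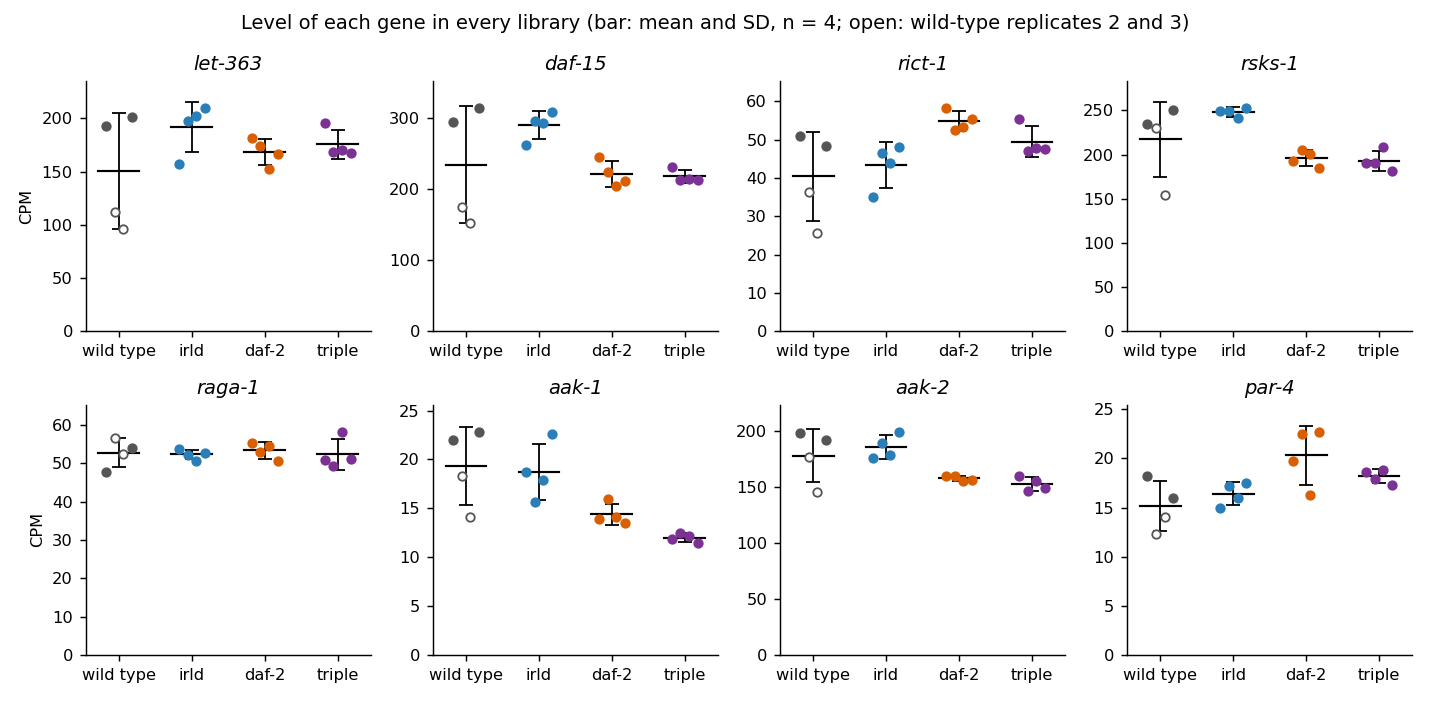
Level of each gene in every library, in CPM (vertical axes, from 0), by group (horizontal axes). Dots are libraries, with wild-type replicates 2 and 3 open, and bars are the mean and SD of 4 libraries. aak-1 ranges from 14.15 to 22.85 CPM in wild type and from 11.4 to 12.5 in the triple mutant, while raga-1 stays between 47.8 and 58.3 CPM in all libraries.

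Both catalytic subunits of AMPK were lower in larvae with daf-2(e1370), and the change of the less abundant subunit was the larger estimate. With both daf-2(e1370) groups set against both groups without it, 8 libraries against 8, aak-1 fell by 0.54 ± 0.10 (log2 fold change ± SE), aak-2 fell by 0.23 ± 0.07, and par-4 rose by 0.28 ± 0.09. Together with rsks-1, described among the TOR genes, these made 4 of the 8 members called at an adjusted p under 0.05, where 31.2% of the 14058 genes tested were called (edgeR's quasi-likelihood test, Benjamini-Hochberg adjustment over all genes).

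aak-1 (WBGene00019801, chromosome III 8756990 to 8761090, minus strand, WBcel235) stood at 21.98, 18.31, 14.15 and 22.85 CPM in wild-type replicates 1 to 4. It stood at 18.67, 15.66, 17.94 and 22.61 CPM in the irld mutant. Levels in the daf-2 mutant were 13.9, 16, 14.1 and 13.5 CPM. The triple mutant was lowest, with 11.87 and 12.46 CPM in the LRB457 libraries and 12.19 and 11.41 CPM in the LRB458 libraries. Of the 8 libraries with daf-2(e1370), 7 lay below every library without it, and the exception was replicate 2 of the daf-2 mutant. In the pooled comparison 0 of the 8 members had no overlap at all, where 8.32% of genes tested had none. The fall was 0.43 ± 0.14 in the daf-2 mutant against wild type (95% interval -0.72 to -0.13, adjusted p = 0.048) and 0.65 ± 0.14 in the triple mutant against the irld mutant (-0.94 to -0.35, adjusted p = 0.0043), and those comparisons share no library. In the pooled comparison the fall passed the test (adjusted p = 0.00065) under 26 of 26 alternative settings, and the fall against the irld mutant under 18 of 18. The fall in the daf-2 mutant against wild type passed it under 5 of 17 settings, with adjusted p from 0.0033 to 0.12, and leaving out any 1 of its libraries but wild-type replicate 3 ended it. With wild-type replicates 2 and 3 both left out it was 0.63 ± 0.12 (adjusted p = 0.0035).

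The comparison of the daf-2 mutant with wild type called 2 of 8 members, aak-1 and par-4, where 15.7% of genes tested were called. The comparison of the triple with the irld mutant called 3 of 8, aak-1, rsks-1 and aak-2, where 18.4% were called. In the triple mutant against wild type aak-1 was the member called, 1 of 8 where 20.4% of genes were called, with a fall of 0.69 ± 0.14 (adjusted p = 0.0028). Genes whose exons overlap can share reads: 100 of the 2337 exon bases of aak-1 overlap sma-2 on the opposite strand, which fell by 0.25 ± 0.07 in the pooled comparison (adjusted p = 0.0098) and had at most 552 counts in a library. The strand setting of the counting is not stated, and the part of sma-2 in the aak-1 counts was not tested.

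aak-2 (WBGene00020142, chromosome X 16796087 to 16803398, plus strand) is the subunit known for its part in longevity and starvation survival. It was measured at 198.3, 177.1, 145.5 and 192.5 CPM in wild type and at 175.8, 189.9, 178.8 and 199.8 CPM in the irld mutant. Levels were closer together in the daf-2 mutant, at 160.0, 159.6, 155.4 and 156.2 CPM, and the triple mutant had 159.7, 146.2, 155.7 and 149.2 CPM. All 8 libraries with daf-2(e1370) lay below the median of the other 8, and the groups overlapped through wild-type replicate 3. In the pooled comparison aak-2 fell by 14.8% (adjusted p = 0.015). The fall was 0.28 ± 0.09 in the triple against the irld mutant (adjusted p = 0.047), with no overlap between libraries. Leaving out any 1 of those 8 libraries ended that call (adjusted p = 0.057 to 0.13), while the pooled call held under 22 of 26 settings. The estimate in the daf-2 mutant against wild type was -0.18 ± 0.09 (adjusted p = 0.22). Without wild-type replicates 2 and 3 the latter was -0.30 ± 0.07 (adjusted p = 0.0083). aak-2 shares 78 of its 2431 exon bases with mec-4 on the opposite strand, which was not called in the pooled comparison (-0.18 ± 0.17, adjusted p = 0.46).

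Within a library, aak-1 made up 8.86% to 10.6% of the counts of both subunits in wild type and 7.62% to 10.2% in the irld mutant. The share was 7.95% to 9.12% in the daf-2 mutant and 6.92% to 7.85% in the triple mutant. Wild type had a log2 ratio of aak-1 to aak-2 counts of -3.22 ± 0.13, against -3.32 ± 0.20 in the irld mutant, -3.46 ± 0.10 with daf-2(e1370) alone and -3.67 ± 0.09 for the triple genotype (SD, n = 4 each). With daf-2(e1370) it was lower by a difference of -0.29 over 8 against 8 libraries (exact two-sided permutation test, p = 0.0031, adjusted p = 0.019 over 12 comparisons). The triple mutant lay below the daf-2 mutant by a difference of -0.21, with no overlap (exact permutation p = 0.029, the smallest that 4 against 4 libraries allow, adjusted p = 0.049). Of single genes 6.32% did not overlap there, and the share of gene pairs was not worked out. Leaving out each library in turn gave differences from -0.252 to -0.165, at sizes where the adjusted p cannot pass.

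par-4 (WBGene00003919, chromosome V 18098687 to 18106405, plus strand) moved the other way. Its levels were 18.24, 12.34, 14.08 and 15.97 CPM in wild type and 14.96, 17.22, 16 and 17.48 CPM in the irld mutant. They were 19.76, 22.47, 16.24 and 22.73 CPM in the daf-2 mutant and 18.62, 17.95, 18.84 and 17.34 CPM in the triple mutant. Of the 8 libraries with daf-2(e1370), 5 lay above every library without it, and none lay below the median of those without it. The pooled rise of 0.28 ± 0.09 (adjusted p = 0.022) was 0.42 ± 0.13 in the daf-2 mutant against wild type (adjusted p = 0.031), and the estimate in the triple against the irld mutant was 0.15 ± 0.12 (adjusted p = 0.47). The pooled call held under 22 of 26 settings, and leaving out wild-type replicate 2 or 3 or replicate 1, 2 or 4 of the daf-2 mutant ended the call against wild type (adjusted p = 0.057 to 0.087). The highest values, 22.47 and 22.73 CPM, came from replicates 2 and 4 of the daf-2 mutant, which with replicate 1 of LRB458 lay at 4.36 to 19.02 on the first principal component of all genes, where the other daf-2(e1370) libraries lay at 38.1 to 61.5. Without those 3 libraries the estimate against wild type was 0.25 ± 0.15 (adjusted p = 0.30) and the pooled estimate 0.19 ± 0.10 (adjusted p = 0.19). Both calls were also lost when wild-type replicates 2 and 3 were left out, with 0.26 ± 0.13 against wild type (adjusted p = 0.23) and 0.22 ± 0.09 pooled (adjusted p = 0.065).

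**Figure D3:**
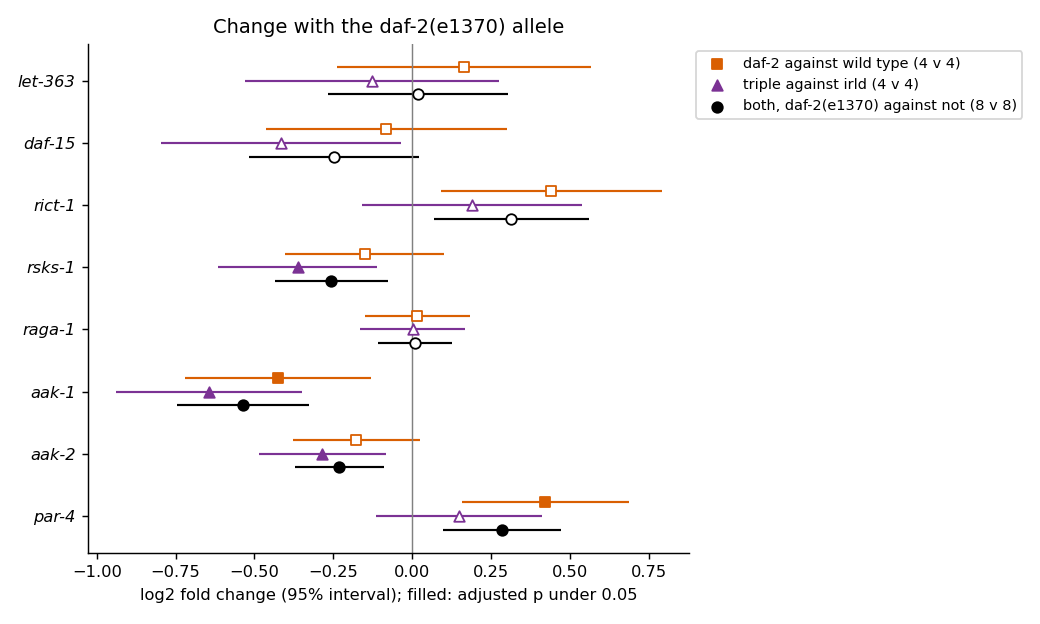
Change of each gene with daf-2(e1370), as log2 fold change with its 95% interval (horizontal axis), in the daf-2 mutant against wild type (squares, 4 against 4), the triple against the irld mutant (triangles, 4 against 4) and both together (circles, 8 against 8). Filled symbols have an adjusted p under 0.05. aak-1 is filled in all 3, at -0.43, -0.65 and -0.54, and raga-1 lies at 0.02, 0.0015 and 0.01.

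Among the TOR genes the S6 kinase gene rsks-1 was lower with daf-2(e1370), and the TOR kinase and the Rag GTPase did not pass the test. rsks-1 (WBGene00012929, chromosome III 11245120 to 11252281, plus strand) stood at 234.9, 229.9, 154.8 and 250.3 CPM in wild type. It stood at 249.2, 249.9, 241.0 and 253.0 CPM in the irld mutant, at 192.7, 205.7, 200.7 and 184.5 CPM in the daf-2 mutant and at 190.6, 191.0, 209.0 and 181.3 CPM in the triple mutant. The irld mutant lay above the triple mutant with no overlap, and wild type overlapped the daf-2 mutant only through its replicate 3. The pooled fall was 0.26 ± 0.08 (adjusted p = 0.029) and the fall in the triple against the irld mutant 0.36 ± 0.12 (adjusted p = 0.044). The estimate in the daf-2 mutant against wild type was -0.15 ± 0.12 (adjusted p = 0.42), and without wild-type replicates 2 and 3 it was -0.30 ± 0.07 (adjusted p = 0.014). The pooled call held under 13 of 26 alternative settings, with adjusted p up to 0.10. It was lost without any 1 of wild-type replicates 1 and 4, irld replicate 4, daf-2 mutant replicates 1 and 4, both LRB457 libraries and LRB458 replicate 4 (adjusted p = 0.051 to 0.061). The call in the triple against the irld mutant was lost without any 1 of its libraries but LRB458 replicate 1 (adjusted p = 0.061 to 0.12).

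let-363 (WBGene00002583, chromosome I 5245743 to 5263424, plus strand), the TOR kinase, stood at 193.1, 111.9, 96.39 and 201.2 CPM in wild type. It ranged from 157.5 to 210.0 CPM in the irld mutant, from 152.9 to 181.7 in the daf-2 mutant and from 167.9 to 195.9 in the triple mutant. Wild-type replicates 2 and 3 lay below every other library, while replicates 1 and 4 lay above all libraries of the daf-2 mutant. The pooled estimate was 0.02 ± 0.13 (95% interval -0.27 to 0.30, adjusted p = 0.94), and without those wild-type libraries it turned to -0.16 ± 0.07 (adjusted p = 0.097). For the daf-2 mutant alone against wild type, let-363 was at 0.16 ± 0.19 (adjusted p = 0.59), and at -0.21 ± 0.11 (adjusted p = 0.23) without them. raga-1 (WBGene00006414, chromosome II 11301359 to 11302776, plus strand) ranged from 47.8 to 56.6 CPM in wild type, from 50.7 to 53.6 in the irld mutant, from 50.5 to 55.4 in the daf-2 mutant and from 49.2 to 58.3 in the triple mutant. Its pooled estimate was 0.01 ± 0.06, and the 95% interval from -0.11 to 0.13 was the narrowest of the 8. In the daf-2 mutant against wild type it was 0.02 ± 0.08, and 0.08 ± 0.08 without wild-type replicates 2 and 3.

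daf-15 and rict-1, the genes of Raptor and Rictor, leaned in opposite directions. daf-15 (WBGene00000911, chromosome IV 9386208 to 9394979, plus strand) stood at 294.5, 174.3, 152.4 and 314.2 CPM in wild type and at 262.0, 296.3, 293.5 and 309.0 CPM in the irld mutant. It stood at 244.5, 224.3, 203.9 and 211.2 CPM in the daf-2 mutant and at 230.5, 212.9, 214.3 and 212.8 CPM in the triple mutant. Every triple mutant library lay below every irld library, while wild-type replicates 1 and 4 lay above and replicates 2 and 3 below all libraries of the daf-2 mutant. The pooled estimate was -0.25 ± 0.13 (adjusted p = 0.15), and the estimate in the triple against the irld mutant was -0.42 ± 0.18 (adjusted p = 0.13). Neither passed the test, nor did the estimate of -0.08 ± 0.18 (adjusted p = 0.79) in the daf-2 mutant against wild type. In a fit added after seeing the data, without wild-type replicates 2 and 3, the pooled fall was 0.42 ± 0.05 (adjusted p = 5.1e-05) and the fall in the daf-2 mutant against wild type 0.45 ± 0.08 (adjusted p = 0.0026). A further added fit with the long-transcript level of each library as a term gave a fall of 0.34 ± 0.05 (adjusted p = 7.0e-05). daf-15 shares 107 of its 5883 exon bases with the collagen gene col-121 on the opposite strand, which had at most 162 counts and rose by 1.91 ± 0.34 in the pooled comparison (adjusted p = 0.00049).

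rict-1 (WBGene00009245, chromosome II 13098239 to 13116810, minus strand) stood at 51.05, 36.48, 25.71 and 48.49 CPM in wild type and at 34.97, 46.57, 43.94 and 48.18 CPM in the irld mutant. Libraries of the daf-2 mutant gave 58.34, 52.51, 53.31 and 55.47 CPM, all above wild type, and those of the triple mutant 55.48, 47.13, 47.78 and 47.59 CPM. It was the only member whose daf-2 mutant libraries were all apart from those of wild type, where 18.3% of genes tested did not overlap. The estimate there was 0.44 ± 0.17 (adjusted p = 0.082) and the pooled estimate 0.32 ± 0.12 (adjusted p = 0.050, 0.05013 before rounding), and neither passed the test. Without wild-type replicates 2 and 3, the lowest libraries of that group, the former was 0.15 ± 0.11 (adjusted p = 0.41). Under alternative settings the pooled estimate ranged from 0.18 to 0.38 and passed in 8 of 26, among them the settings without wild-type replicate 1, 3 or 4 (adjusted p = 0.018 to 0.027). Without those wild-type libraries it was 0.18 ± 0.07 (adjusted p = 0.060), and with the long-transcript term 0.23 ± 0.06 (adjusted p = 0.0073). With that term 6 of the 8 members were called in the pooled comparison, where it called 34.6% of all genes, and without wild-type replicates 2 and 3 there were 4 of 8, where 33.8% were called. In the triple against the irld mutant daf-15, rsks-1, aak-1 and aak-2 had no overlap between libraries, 4 of 8 where 27.0% of genes had none.

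The ratio of daf-15 to rict-1 within a library does not depend on how libraries are scaled, and both transcripts are long. Counts of daf-15 were 5.77, 4.78, 5.93 and 6.48 times those of rict-1 in wild type and 7.49, 6.36, 6.68 and 6.41 times in the irld mutant. They were 4.19, 4.27, 3.83 and 3.81 times those of rict-1 in the daf-2 mutant and 4.15, 4.52, 4.48 and 4.47 times in the triple mutant. Every library with daf-2(e1370) lay below every library without it, 8 against 8. Of single genes 8.32% did not overlap in that comparison. The share of gene pairs whose ratio separates this way was not worked out, so how unusual this pair is cannot be told. As log2 ratios the group means were 2.51 ± 0.19, 2.75 ± 0.11, 2.01 ± 0.09 and 2.14 ± 0.06 (SD, n = 4, in the same order of groups), and the pooled difference was -0.56. The exact two-sided permutation test gave p = 0.00016, the smallest that 8 against 8 libraries allow (adjusted p = 0.0019 over 12 comparisons). The difference was -0.51 in the daf-2 mutant against wild type and -0.61 in the triple against the irld mutant, each with an exact permutation p of 0.029, the smallest possible for 4 against 4 (adjusted p = 0.049). The ratio in the irld mutant against wild type differed by 0.24 (exact permutation p = 0.086, adjusted p = 0.094).

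**Figure D4:**
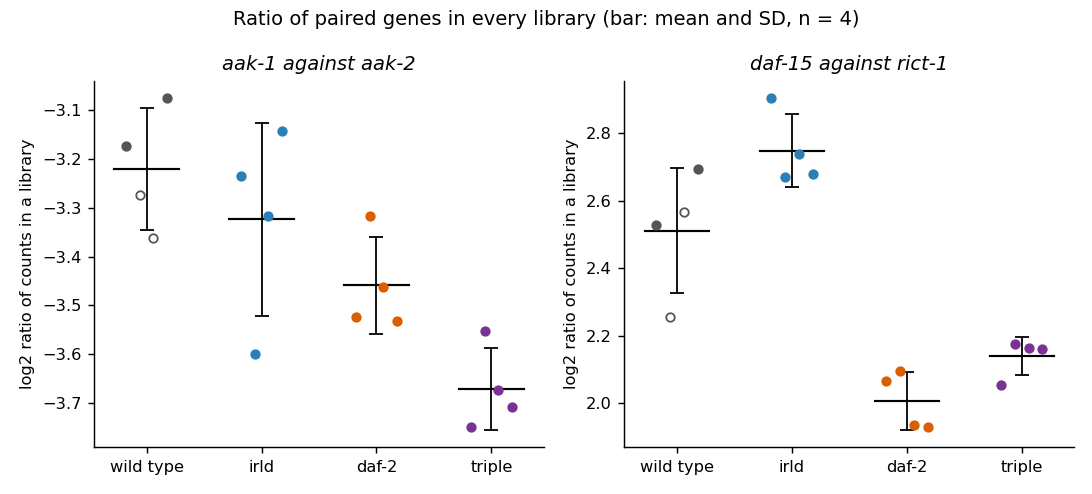
Ratio of paired genes within each library, as log2 of the ratio of counts (vertical axes), by group (horizontal axes). Dots are libraries, with wild-type replicates 2 and 3 open, and bars are the mean and SD of 4 libraries. For daf-15 against rict-1 the group means are 2.51 and 2.75 without daf-2(e1370) and 2.01 and 2.14 with it, and the libraries of the 2 sets do not overlap.

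The comparisons that add the irld alleles called none of the 8 genes. In the irld mutant against wild type 0 of 8 were called where 0.00711% of genes were called, and estimates ran from -0.04 for aak-1 to 0.35 ± 0.19 for let-363. When wild-type replicates 2 and 3 were left out, that of let-363 was -0.029, and 6 of the 8 estimates changed sign. In the triple against the daf-2 mutant 0 of 8 were called where 0.0925% of genes were called, and the widest estimate was the -0.26 ± 0.14 of aak-1 (95% interval -0.56 to 0.03), whose libraries did not overlap, as for 6.32% of genes. The interaction, which asks whether the irld alleles act differently with daf-2(e1370) than without it, called 0 of 8 where 0.0640% were called. At an unadjusted p under 0.05 in edgeR there were 0 members in the first comparison, where 6.49% of genes passed, and 0 in the second, where 6.51% did. The lowest unadjusted p of a member in the interaction was 0.14, for par-4, so 0 passed there. The share of all genes passing is not given for the interaction, so whether that 0 is few cannot be told. DESeq2 called 0 members in each comparison, where it called 0.0142%, 0.192% and 0.149% of genes in the same order. All 8 interaction estimates were below 0, from -0.33 ± 0.25 for daf-15 to -0.02 ± 0.11 for raga-1, and all rest on the same libraries. Without wild-type replicates 2 and 3 the estimates for let-363, daf-15, rict-1, aak-1 and aak-2 were above 0, from 0.010 to 0.109. In the authors' deposited table of the interaction the adjusted p-values of the 8 genes ran from 0.78 for par-4 to 0.94 for raga-1, and the log2 fold changes ran from -0.037 for raga-1 to 0.29 for daf-15. Apart from raga-1, the authors' deposited table gives them the sign opposite to the contrast here. On gene count totals without TMM raga-1 was 0.038 here, also opposite in sign to the authors' -0.037. A contrast taken the other way round reverses every sign. Which way round the authors took theirs was not checked, so the signs are not read as opposite effects.

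The rest of both pathways was followed with 70 further genes in 5 lists, which leave out the 8 members. In the pooled daf-2(e1370) comparison 6 of the 70 rose and 19 fell, where 16.1% of all genes tested rose and 15.0% fell. The median log2 fold change over all genes was -0.00535. The irld mutant against wild type, the triple against the daf-2 mutant and the interaction called 0 of the 70, where 0.00711%, 0.0925% and 0.0640% of all genes were called. At an unadjusted p under 0.05 in edgeR, 9 passed in the first (7 higher, 2 lower), where 6.49% of all genes passed. In the second 1 passed, where 6.51% did. In the interaction 0 passed, but the share of all genes is not given there, so whether 0 is few cannot be told.

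Of 15 other genes of the TOR complexes and their inputs, 2 rose and 6 fell, with a list median of -0.060. fnip-2, whose mammalian relatives act with folliculin on the Rag GTPases, fell by 0.64 ± 0.09 (adjusted p = 8.0e-05). lmtr-2, a subunit of the Ragulator that anchors Rag GTPases at the lysosome, fell by 0.49 ± 0.07 (adjusted p = 0.00011), and rheb-1, the GTPase that activates TOR complex 1, fell by 0.24 ± 0.06 (adjusted p = 0.0037). pdk-1, a kinase that activates AKT, SGK and S6 kinases, rose by 0.49 ± 0.12 (adjusted p = 0.0042). The folliculin gene flcn-1 rose by 0.42 ± 0.10 (adjusted p = 0.0043).

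Of 22 other TOR outputs 1 rose and 5 fell, with a median of -0.077. lpin-1, a lipin that makes diacylglycerol from phosphatidate, fell by 1.09 ± 0.10 (adjusted p = 1.2e-06). fib-1, the fibrillarin that methylates ribosomal RNA in the nucleolus, rose by 0.85 ± 0.09 (adjusted p = 4.7e-06). The autophagy kinase gene unc-51 fell by 0.35 ± 0.08 (adjusted p = 0.0033) and its partner atg-13 fell by 0.27 ± 0.07 (adjusted p = 0.0045). sgk-1, a kinase downstream of TOR complex 2, fell by 0.33 ± 0.08 (adjusted p = 0.0046).

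Of 12 other AMPK subunits and upstream kinases 2 rose and 3 fell, with a median of -0.037. mop-25.1, whose mammalian relative is the scaffold of the LKB1 complex, fell by 0.52 ± 0.07 (adjusted p = 3.4e-05). The gamma subunit gene aakg-5 rose by 0.55 ± 0.10 (adjusted p = 0.00065), ckk-1, a calcium-dependent kinase of the type that can activate AMPK, fell by 0.36 ± 0.07 (adjusted p = 0.0016), and the beta subunit gene aakb-2 fell by 0.29 ± 0.09 (adjusted p = 0.019). Of 12 AMPK-related kinases and AMPK outputs 1 rose and 3 fell, with a median of -0.099. The triglyceride lipase gene atgl-1 fell by 0.55 ± 0.07 (adjusted p = 2.2e-05), the CREB coactivator gene crtc-1 by 0.45 ± 0.08 (adjusted p = 0.00034), and pod-2, the acetyl-CoA carboxylase that starts fatty acid synthesis, by 0.98 ± 0.20 (adjusted p = 0.0015). hmgr-1, the HMG-CoA reductase, rose by 0.22 ± 0.07 (adjusted p = 0.024). Of 9 other nutrient and stress sensing kinases and partners 0 rose and 2 fell: pek-1, the kinase of endoplasmic reticulum stress, by 0.44 ± 0.10 (adjusted p = 0.0024), and the calmodulin-dependent kinase gene cmk-1 by 0.25 ± 0.07 (adjusted p = 0.018).

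**Figure D5:**
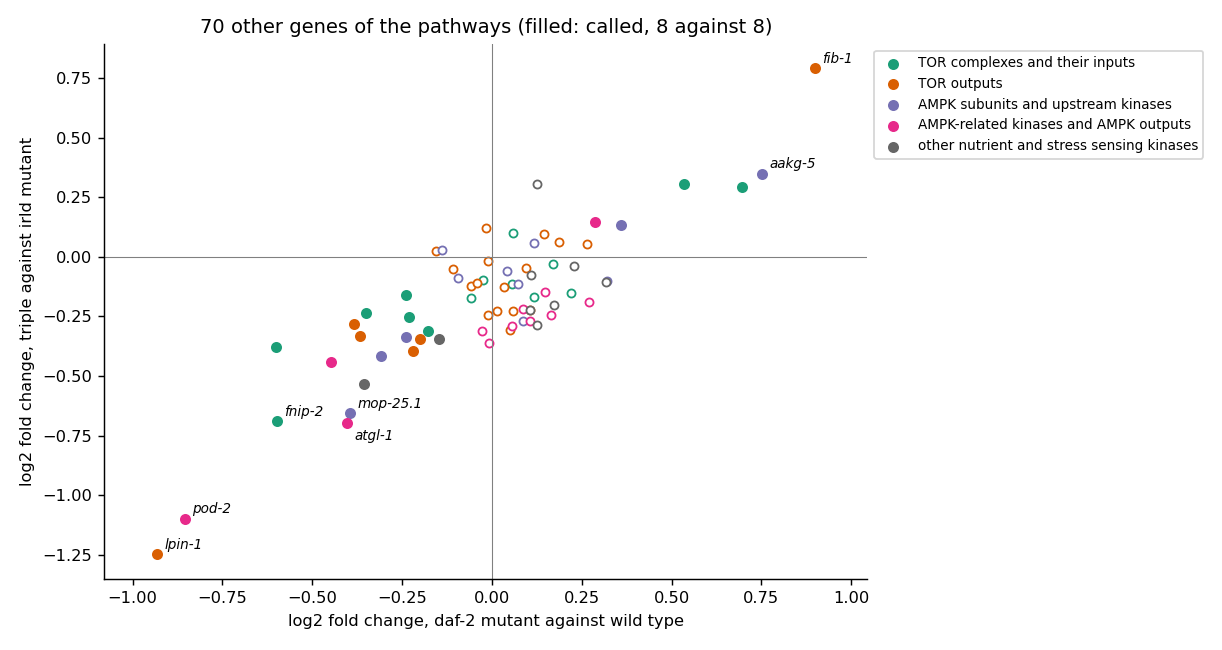
Log2 fold change of the 70 other pathway genes in the daf-2 mutant against wild type (horizontal axis) and in the triple against the irld mutant (vertical axis), coloured by list. Filled dots were called in the pooled comparison, 6 higher and 19 lower, and labelled genes moved by more than 0.5. lpin-1 lies lowest, at -0.93 and -1.25, and fib-1 highest on both axes, at 0.90 and 0.79.

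In the daf-2 mutant against wild type 5 of the 70 rose and 9 fell, where 7.97% of genes tested rose and 7.74% fell. In the triple against the irld mutant 1 rose and 12 fell, where 9.80% rose and 8.64% fell, and in the triple mutant against wild type 3 rose and 11 fell, where 10.1% rose and 10.4% fell. In the daf-2 mutant against wild type lpin-1 fell by 0.93 ± 0.15 (adjusted p = 0.00041) and fib-1 rose by 0.90 ± 0.13 (adjusted p = 0.00021). In the triple against the irld mutant, which shares no library with that comparison, lpin-1 fell by 1.25 ± 0.15 (adjusted p = 3.3e-05) and fib-1 rose by 0.79 ± 0.13 (adjusted p = 0.00056). When wild-type replicates 2 and 3 were left out, the numbers that fell against wild type were 15 (daf-2 mutant, where 6.48% of all genes fell) and 17 (triple mutant, where 7.52% fell).

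The genes whose levels followed each member most closely over the 16 libraries were found among 9396 genes with a mean of at least 5 CPM, by the root mean square difference of centred log2 CPM. aak-1 was closest to mop-25.1, at 0.136, and almost as close to ubc-3, at 0.141, where the median gene was at 0.386. mop-25.1 is one of the AMPK pathway genes above, and ubc-3 is in none of the lists. No other member was as far from its nearest gene as aak-1. let-363 was closest to unc-13 at 0.0765, daf-15 to pdzd-8 at 0.0711 and rict-1 to chd-3 at 0.0897. These partners have 6864, 4670 and 5561 exon bases. rsks-1 was closest to mtm-3 at 0.0498, raga-1 to efr-3 at 0.0553, aak-2 to cul-2 at 0.0583 and par-4 to mtch-1 at 0.0844.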

How the data were processed

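Polyadenylated RNA of whole starved L1 larvae was extracted with TRIzol and made into libraries with the NEBNext Ultra II kit, with an ERCC spike-in added per total RNA, per the labels' protocols. Per the submitters' processing notes, Bowtie 1.2.2, HTSeq 0.11.2 and edgeR 3.24.4 were used. The strand setting and other options are not given in the sources used here. The authors deposited unscaled counts per gene, with 5 HTSeq summary entries that were left out here and held 40.4% to 42.5% of reads. Their deposited interaction table of 12690 genes gives, per gene, log2 fold changes, a score (F), a p-value and the FDR. The authors' tables of combined counts and CPM were not used.

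Here, genes that reached 1 CPM in 4 or more libraries (14058, all 8 members among them) were scaled with TMM factors and fitted in 1 quasi-likelihood model over the 4 groups without covariates (edgeR 4.0.16, R 4.3.3, robust dispersion). Calls needed an adjusted p under 0.05 (Benjamini-Hochberg, over all genes tested). Each SE is |log2 fold change| divided by the root of F, and intervals are 95%. Ratios within a library were compared with exact two-sided permutation tests. Coordinates and exon lengths are from Ensembl 115 (WBcel235), a later annotation than the one used for counting. The model code was tested on simulated data. Named genes were all members, up to 4 genes per list and contrast with the smallest adjusted p, and the nearest gene to each member. For aak-1 the next nearest gene is also named. atg-13 stands for the older name epg-1. Members and lists were chosen with earlier results of these data known, and so was the set of 3 libraries left out in 1 alternative. Replicates are biological, per the labels. No pair of libraries had identical counts. Alternatives were other scalings, DESeq2 1.42.0, no filter, fewer groups, a replicate block, and leaving out lines and libraries, and, added after seeing the data, a long-transcript term and leaving out wild-type replicates 2 and 3.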

Additional observations from a re-analysis of the deposited data

Results flagged for a closer look

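In a group of 4 libraries, a value was picked out where its gap to the nearest other, over the group's range, passed Dixon's 95% critical value of 0.829. This happened for 3 of the 32 combinations of gene and group, where chance picks about 1 in 20. All 3 were replicate 1 of line LRB457 in the triple mutant: let-363 at 196 CPM against 167.9 to 169.9 in the other triple mutant libraries, daf-15 at 231 CPM against 213 to 214, and rict-1 at 55.5 CPM against 47.1 to 47.8. These are the 3 members with the longest transcripts. The median of all genes with 5000 or more exon bases did not set that library apart, at 0.084 against 0.018 to 0.099 in the other triple mutant libraries. The cause was not tested.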

How the results depend on the processing

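Values below are log2 fold changes unless counts are named, and the cause of each shift was not tested. Over 1128 values of single members under alternatives, 937 kept their direction and side of the threshold, 72 lost the call, 31 gained it and 88 changed sign. In the triple against the irld mutant, the edgeR calls of rsks-1 and aak-2 lay near the threshold (adjusted p = 0.044 and 0.047), and that of aak-1 did not (0.0043). The smallest change that 4 libraries a group can call is not given here. Same-numbered libraries of different groups deviated together (correlation over 0.1) in 9 of 24 pairs. The mean correlation was 0.020 for same-numbered pairs and -0.0066 for the others. The highest of a same-numbered pair was 0.308. A differently numbered pair, replicate 3 of the daf-2 mutant and replicate 4 of LRB458, reached 0.518. Whether the numbers mark libraries prepared together was not tested. With the replicate block, 1 member was called in the daf-2 mutant against wild type (15.3% of all genes), 1 in the triple against the irld mutant (16.5%) and 4 in the pooled comparison (29%), and no paired reading is made.

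Percentages in brackets are the share of all genes called in the same fit. Members called in the triple against the irld mutant numbered 1 with DESeq2 size factors (18.1%), 1 with gene count totals without TMM (18.4%), 1 with no filter on low counts (7.14%), 1 without line LRB457 (9.63%), 1 without line LRB458 (10.5%), 1 without the 3 libraries apart on the first component, replicates 2 and 4 of the daf-2 mutant and replicate 1 of LRB458 (17%), and 5 with the long-transcript term (23.4%). Members called in the daf-2 mutant against wild type numbered 0 with no filter (5.56%), 0 with only the groups compared (8.92%), 0 without the 3 libraries apart (14.8%) and 4 without wild-type replicates 2 and 3 (12.9%). In the pooled comparison they numbered 1 without line LRB457 (23.3%), 1 without line LRB458 (24.3%) and 1 without the 3 libraries apart (27.2%), aak-1 each time. In the triple mutant against wild type they numbered 3 with the long-transcript term (18.7%) and 4 without wild-type replicates 2 and 3 (15.1%). For the 70 other pathway genes, brackets after counts called higher give the number of all genes tested that were called higher. After counts called lower they give the share of all genes called lower. Those called higher in the daf-2 mutant against wild type numbered 3 with the long-transcript term (1050 of 14058), 3 with only the groups compared (614 of 13166) and 2 without the 3 libraries apart (1115 of 13804). Those called lower numbered 3 with only the groups compared (4.26%), 3 without the 3 libraries apart (6.71%) and 15 without wild-type replicates 2 and 3 (6.48%). In the triple against the irld mutant those called higher numbered 4 without TMM (1710 of 14058), 5 with only the groups compared (1620 of 13376) and 2 without the 3 libraries apart (1325 of 13804). Those called lower numbered 21 with only the groups compared (11.3%), 4 without line LRB457 (3.94%) and 4 without line LRB458 (4.57%). In the triple mutant against wild type those called higher numbered 7 without TMM (1937 of 14058) and 1 without line LRB457 (729 of 13796). Those called lower numbered 6 without TMM (7.33%), 6 with no filter (3.52%) and 7 with only the groups compared (6.94%). They numbered 4 without line LRB457 (4.51%), 4 without line LRB458 (5.39%) and 17 without wild-type replicates 2 and 3 (7.52%).

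Without wild-type replicates 2 and 3, 2 libraries against 4 cannot pass the exact test, and the balance of aak-1 against aak-2 in the triple mutant against wild type was -0.548, that of daf-15 against rict-1 -0.606 (daf-2 mutant) and -0.473 (triple mutant) against wild type (exact permutation adjusted p = 0.16 each). Leaving out single libraries also takes the 4 against 4 ratio tests to 3 against 4, where the adjusted p cannot pass: aak-1 against aak-2 ranged from -0.252 to -0.165 in the triple against the daf-2 mutant and from -0.498 to -0.402 against wild type, and daf-15 against rict-1 from -0.591 to -0.444 in the daf-2 mutant against wild type, from -0.636 to -0.558 in the triple against the irld mutant and from -0.458 to -0.312 against wild type.

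Sign changes concerned values that were not called. Without wild-type replicates 2 and 3, the irld mutant against wild type gave let-363 -0.029, daf-15 -0.058, rict-1 -0.187, raga-1 0.050, aak-2 -0.060 and par-4 -0.049, let-363 was -0.212 (daf-2 mutant) and -0.131 (triple mutant) against wild type and -0.157 pooled, raga-1 was 0.076 in the triple mutant against wild type, and the interaction gave let-363 0.109, daf-15 0.061, rict-1 0.061, aak-1 0.010 and aak-2 0.037. With the long-transcript term, the irld mutant against wild type gave rict-1 -0.166, raga-1 0.017, aak-2 -0.055 and par-4 -0.026, let-363 was -0.099 (daf-2 mutant) and -0.022 (triple mutant) against wild type and -0.079 pooled, raga-1 was -0.003 in the triple against the irld mutant and 0.014 against wild type, and the interaction gave let-363 0.040, rict-1 0.031 and aak-2 0.013. Gene count totals without TMM gave daf-15 0.039, rsks-1 0.040, raga-1 0.035 and aak-2 0.012 in the triple against the daf-2 mutant, and raga-1 0.082 against wild type and 0.038 in the interaction. With only the groups compared, daf-15 was 0.008, rsks-1 0.009 and raga-1 0.003 in the triple against the daf-2 mutant. For raga-1, DESeq2 gave 0.003 in the triple mutant against wild type and 0.005 in the interaction, DESeq2 size factors 0.002 and 0.004, and no filter 0.008 in the interaction. Without line LRB457 raga-1 was 0.037 in the triple against the daf-2 mutant, 0.056 against wild type and 0.050 in the interaction, and let-363 -0.007 pooled. Without line LRB458 raga-1 was -0.061 in the triple against the irld mutant and -0.021 pooled, and daf-15 0.007 in the triple against the daf-2 mutant. Without the 3 libraries apart raga-1 was -0.051 in the triple against the irld mutant.

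Leaving out each library in turn, members called ranged from 0 to 3 in the daf-2 mutant against wild type (10.9% to 15.8% of all genes), from 1 to 2 in the triple against the irld mutant (13.6% to 17.7%) and from 1 to 3 in the triple mutant against wild type (14.8% to 19.6%). Other pathway genes called ranged from 3 to 6 higher and 6 to 16 lower in the daf-2 mutant against wild type. In those fits 768 to 1097 of the 13967 to 14038 genes tested were called higher, and 5.39% to 8.39% were called lower. Pathway genes called lower ranged from 7 to 16 in the triple mutant against wild type, where 7.42% to 10.2% of all genes were called lower. Values that crossed 0 in the irld mutant against wild type were aak-1 (-0.176 to 0.032), aak-2 (-0.033 to 0.116), rict-1 (-0.069 to 0.235) and raga-1 (-0.057 to 0.023). In the daf-2 mutant against wild type they were daf-15 (-0.242 to 0.074), let-363 (-0.001 to 0.316) and raga-1 (-0.028 to 0.052). In the triple against the daf-2 mutant they were daf-15 (-0.058 to 0.030), raga-1 (-0.083 to 0.002) and rsks-1 (-0.061 to 0.009), and against wild type daf-15 (-0.240 to 0.076) and raga-1 (-0.065 to 0.025). raga-1 also crossed 0 in the triple against the irld mutant (-0.053 to 0.046), the interaction (-0.070 to 0.050) and the pooled comparison (-0.018 to 0.027), as did aak-2 in the interaction (-0.164 to 0.010) and let-363 pooled (-0.051 to 0.107). Without wild-type replicate 3 alone, daf-15 was called in the pooled comparison (-0.316, adjusted p = 0.019), and aak-2 and rsks-1 were called in the daf-2 mutant against wild type (-0.270 and -0.292) and in the triple mutant against wild type (-0.293 and -0.288). In that fit 16 other pathway genes were called lower in the daf-2 mutant against wild type, where 7.8% of all genes were. In the triple mutant against wild type 7 were called lower without wild-type replicate 1, either LRB457 library or LRB458 replicate 4, where 7.42% to 10.1% of all genes were. Without wild-type replicate 1 or 4, rict-1 was called in the daf-2 mutant against wild type (0.519 to 0.574).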
